A study of Arabidopsis thaliana with 4 samples.

Results

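AT1G06610 and AT1G12590 are nuclear tRNA genes on chromosome 1 of Arabidopsis thaliana, annotated as a tRNA-Ala gene and a tRNA-Gly gene, and they held more small RNA reads than any other annotated nuclear tRNA gene in this series. They are 2 of 38194 entries of the gene table and 2 of 625 nuclear tRNA genes in it, and they were chosen for their abundance, so their levels are a description and carry no test of abundance. AT1G12590 had 93825 counts over the 4 libraries and was the 21st entry of the table by counts, and AT1G06610 had 74316 counts and was the 26th. The next tRNA gene, the tRNA-Ser gene AT3G02715, had 31467 counts. Counts were not divided by gene length. The highest entries of the table were AT3G06365, with 3804874 counts and a class given only as miscellaneous RNA, and the nuclear rRNA gene AT3G41768, with 1171411 counts.

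The small RNAs came from seedlings, grown on MS medium or soil, at 10 days after germination. The PORI rpt2a seedlings carry a mutation in RPT2a, which encodes an ATPase subunit of the proteasome's regulatory particle, in the PORI line, and PORI seedlings are the control. Both groups share PORI, a name that the labels do not spell out, and there were 2 libraries per group. The sample titles write the mutant group as PORIxrpt2a and give no generation or zygosity. The labels give no rpt2a allele and no count of plants per library, and do not say whether replicates were grown separately. The p-values therefore rest on the spread from library to library, which may be technical. As RNA of whole samples was sequenced, fewer cells of a type and less RNA per cell cannot be told apart.

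Transfer RNAs decode mRNA at the ribosome, and each nuclear tRNA is encoded by many near-identical genes. Besides their role in translation, tRNAs are a source of stable short RNAs. Cuts in the anticodon loop give long tRNA fragments, and cuts in the D or T loop give shorter tRNA fragments. In Arabidopsis, RNase T2 enzymes of the RNS family make many such fragments, some of which have been found bound to Argonaute proteins, the effectors of RNA silencing. tRNA-Ala carries alanine and tRNA-Gly carries glycine. The tables give a count per gene and read length without sequence or position, so the end of the tRNA from which a fragment came is not known here, and no sequence is shown.

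The gene table held 4806891 and 2886928 counts in PORI rpt2a replicates 1 and 2, and 4696170 and 4038459 counts in PORI replicates 1 and 2. PORI rpt2a replicate 2 stood apart before any gene was considered. Its log2 CPM values (counts scaled to a common library size) correlated with the PORI libraries at 0.699 and 0.717 across genes, against 0.914 between the PORI libraries. It was closer to PORI rpt2a replicate 1, at 0.821. PORI rpt2a replicate 1 lay between, at 0.845 and 0.823 with PORI replicates 1 and 2. The reads of PORI rpt2a replicate 2 were also shorter, since 15.2% of its gene counts were 18 nt long, against 7.75% to 9.48% in the other 3 libraries. RPT2a (AT4G29040) itself had 38 and 8 counts in PORI rpt2a, against 27 and 21 in PORI. Small RNA reads of a gene do not show its mRNA level and leave the genotype unchecked.

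AT1G06610 gave a broad set of short fragments. In each library 19 nt was its most frequent length, with 6004 and 8264 counts in PORI rpt2a, against 3990 and 4841 in PORI. The 20 nt reads came next, with 4594 and 4677 counts in PORI rpt2a, against 2834 and 3221 in PORI. Reads of 18 to 20 nt thus made up 64.1% and 78.6% of its counts in PORI rpt2a and 55.3% and 59.1% in PORI. Both mutant libraries were above both controls, as in 39.1% of the 548 genes with at least 100 counts in each library. A separate peak lay at 25 nt, with 2047 and 1677 counts in PORI rpt2a, against 2461 and 2539 in PORI, or 10.3% and 7.54% of the gene's counts in PORI rpt2a and 16.1% and 15.02% in PORI. At 26 nt the gene had 0 and 2 counts in PORI rpt2a, against 2 and 5 in PORI, so almost no fragment was longer than 25 nt within the counted range.

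In all libraries but PORI rpt2a replicate 2, AT1G12590 had instead most of its reads in the longest class that the tables record. Its 26 nt reads numbered 32944 and 2306 in PORI rpt2a and 21049 and 11270 in PORI. They made up 78.9% of its counts in PORI rpt2a replicate 1 and 28.2% in PORI rpt2a replicate 2, against 74.8% and 71.6% in PORI. Its 18 nt reads numbered 2308 and 3690 in PORI rpt2a and 1842 and 1232 in PORI, which is 5.53% and 45.2% of its counts in PORI rpt2a and 6.54% and 7.82% in PORI. In PORI rpt2a replicate 2, therefore, 18 nt was its most frequent length, and 26 nt in the other 3 libraries. Lengths of 20 to 22 nt, those of most miRNAs, were almost empty, each with under 1% of the gene's counts in each library. As 26 nt is the upper end of the range, longer fragments of this gene, if there were any, are outside these counts.

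**Figure D1:**
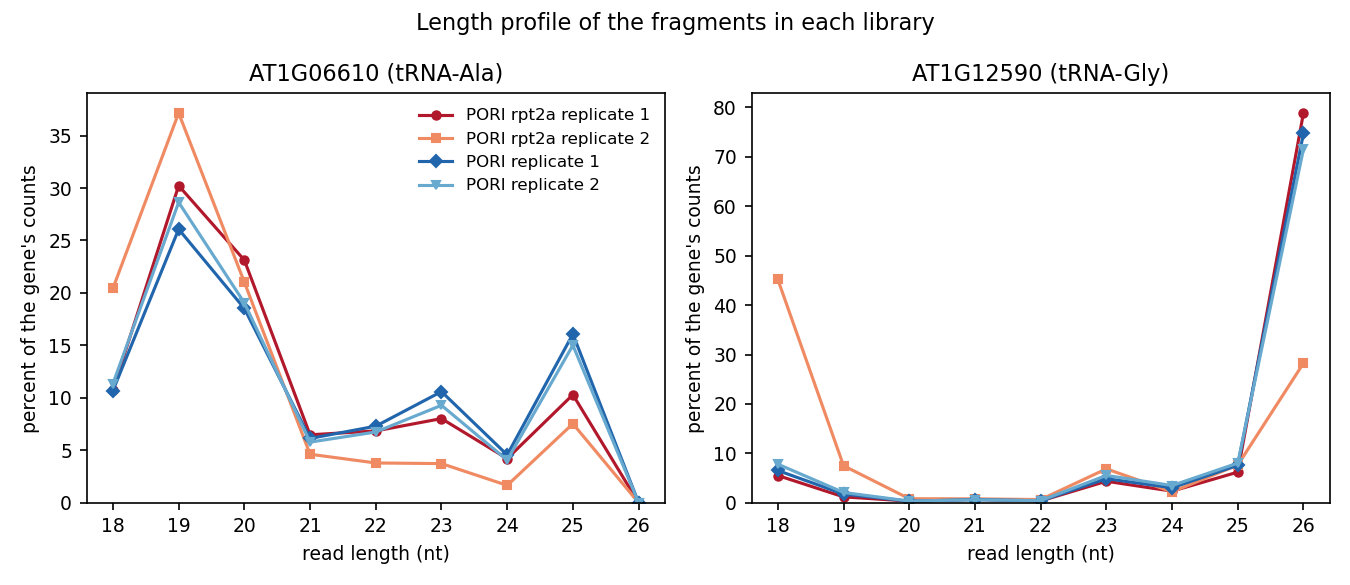
Percent of each gene's counts at each read length from 18 to 26 nt, one line per library, for AT1G06610 (left) and AT1G12590 (right). AT1G06610 peaks at 19 nt in every library with a second peak at 25 nt, and AT1G12590 at 26 nt in every library but PORI rpt2a replicate 2, where 18 nt holds 45.2%.

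The profiles of the genes shared little with each other. The distance between them, the share of reads that would have to change length to make one profile into the other, was 72.0% over the 4 libraries pooled. Among 449 other genes with at least 1000 counts, the genes closest to each were mostly tRNA genes for the same amino acid. For AT1G06610 these were the tRNA-Ala genes AT3G28695, at 3.15%, and AT4G12065, at 3.67%, and then the protein-coding entry AT4G12070, at 3.71%. AT4G12070 had 4448 counts against 4443 for AT4G12065, and the overlap of these entries was not examined. For AT1G12590 the closest were the tRNA-Gly genes AT5G45745, at 2.62%, AT5G59385, at 2.93%, and AT1G08240, at 3.02%. The median gene lay at 70.4% from AT1G06610 and at 86.7% from AT1G12590. The 72.0% between these genes was thus near the first median and below the second. These distances carry no test, and most of the nearest copies had counts in only 1 or 2 libraries. AT3G28695 had counts in PORI rpt2a replicate 1 alone, AT5G45745 and AT5G59385 in PORI alone, and AT1G08240 had all but 1 of its 2195 counts in PORI replicate 2.

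How much of this signal belongs to the named locus cannot be read from its own count, because near-identical copies can share reads and the division of counts among copies differed from library to library. Of the 41 tRNA-Gly genes, AT1G12590 held 62.4% and 96.0% of the counts in PORI rpt2a and 46.8% and 46.0% in PORI. Of the 33 tRNA-Ala genes, AT1G06610 held 33.7% and 78.7% of the counts in PORI rpt2a and 31.2% and 45.4% in PORI. In PORI rpt2a replicate 2 both genes held a larger part of their family than in any other library. No other entry had the same values as either gene at each length and library, and no neighbouring gene overlapped them. The neighbours AT1G06590 and AT1G06620 of AT1G06610 summed to 8 and 1 counts over the 4 libraries, and AT1G12580 and AT1G12600 beside AT1G12590 to 13 and 1.

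Among tRNA-Gly genes, 8 had at least 1000 counts, and these 8 had nearly the same length profile, within 4.29% of AT1G12590. Another 7 tRNA-Gly genes with at least 100 counts lay at 64.3% or more from it. AT5G11225, the second of the family, had 12324 and 0 counts in PORI rpt2a, against 6160 and 4397 in PORI. AT2G27850 had 3998 and 0 counts in PORI rpt2a, against 9434 and 2178 in PORI, and AT2G29030 had 4119 and 0 counts in PORI rpt2a, against 6331 and 2249 in PORI. In PORI rpt2a replicate 2 the 7 copies that resemble AT1G12590 held 0 counts together, which allows a share of up to 0.000104% of gene counts (3 counts of the library), while AT1G12590 had 8163.

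Within a library the counts of these copies fell on steps, a pattern described after the values were seen. In PORI replicate 2, AT5G45745 had 2296 counts, AT5G59385 2264 and AT1G08240 2194, while AT5G11225 was at 1.95 and AT1G12590 at 6.98 times the median of that lowest level, which was 2256.5 counts. In PORI replicate 1 the lowest level was 3158 counts, and AT1G12590 was at 8.92 times, AT2G27850 at 2.99 times, AT2G29030 at 2.00 times and AT5G11225 at 1.95 times that level. In PORI rpt2a replicate 1 the lowest level was 4119 counts, with AT5G11225 at 2.99 and AT1G12590 at 10.1 times it. Of 20 values of at least 500 counts in these 3 libraries, 12 lay within the lowest level, which is near 1 by definition. The 8 above it were within 0.138 of a whole multiple, for which no expectation was computed. Values within the lowest level ran from 0.965 to 1.02 times its median. At the high multiples of AT1G12590, nearness to a whole number therefore says little. Among tRNA-Ala genes, steps were seen in copies with a length profile like that of AT1G06610, and less clearly in the whole family. In PORI replicate 1, AT2G02600 and AT5G01365 were at 2.07 and 2.04 times the lowest level of that family. In PORI rpt2a replicate 1, AT1G07580 and AT5G01365 were at 3.03 and 4.04 times the level there. AT4G12065, also of like profile, was at 2.71 times the level of PORI replicate 2. AT3G63003 and AT3G62245, of unlike profile, were at 4.52 and 1.49 times in PORI replicate 1. AT5G45745 had 0 and 0 counts in PORI rpt2a, against 3174 and 2296 in PORI, and AT5G59385 had 0 and 0 counts in PORI rpt2a, against 3158 and 2264 in PORI. These 2 tRNA-Gly copies were the only genes called, both lower in PORI rpt2a, over all lengths (edgeR adjusted p = 0.0296 for each) and at 26 nt (adjusted p = 0.0149 for each). Over all lengths both calls ended with the table total as library size (edgeR adjusted p = 0.0632) and with a filter at 50 counts (adjusted p = 0.0894). At 26 nt they ended with that filter, without nuclear rRNA and organelle genes, and without PORI replicate 1 (edgeR adjusted p = 0.0517, 0.0508 and 0.897). No fold is given, since both mutant libraries were at 0. In PORI each of them stood at a single step. How the authors' counting divided such reads is not given in the sources used here, and its part in these values was not tested.

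tRNA-Ala genes divided into 2 kinds by length profile. Of 26 with at least 100 counts, 12 lay within 9.11% of AT1G06610 and shared its 19 nt peak. The other 13 were at 29.1% or more and peaked at 20 nt (5 genes) or 25 nt (8 genes). AT1G07580, of the first kind, had 2841 and 1 counts in PORI rpt2a, against 2809 and 3165 in PORI. The 12 copies together had 21738 and 6 counts in PORI rpt2a, against 16732 and 9165 in PORI, so that in PORI rpt2a replicate 2 nearly every read of this kind stood under AT1G06610. Of the 13 genes of the second kind, 7 were at 0 counts in PORI rpt2a replicate 2 and 4 had at least 500, against 7 with at least 500 in PORI rpt2a replicate 1 and 7 and 5 in PORI. The 2 most abundant of them had counts in every library. AT3G63003 had 5860 and 2249 counts in PORI rpt2a, against 6180 and 4569 in PORI, and AT5G08075 had 4121 and 1242 counts in PORI rpt2a, against 1665 and 1989 in PORI.

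**Figure D2:**
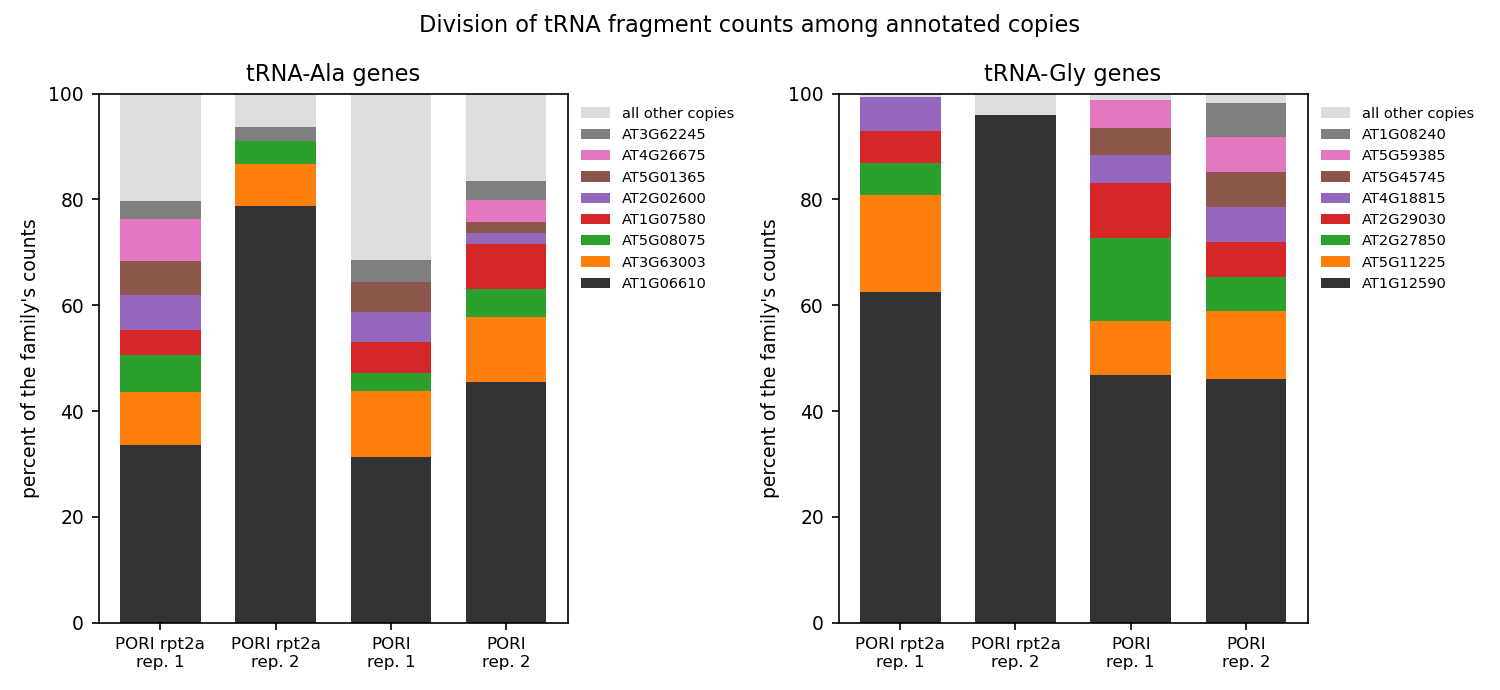
Division of the counts of all tRNA-Ala genes (left) and all tRNA-Gly genes (right) among annotated copies in each library, as percent of the family's counts, with the 8 most abundant copies in colour. AT1G12590 (dark, right) takes 96.0% in PORI rpt2a replicate 2 against 46.0% to 62.4% in the other libraries, and AT1G06610 (dark, left) 78.7% against 31.2% to 45.4%.

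As a share of gene counts, AT1G06610 stood at 0.413% (95% Wilson interval 0.408% to 0.419%) and 0.771% (0.761% to 0.781%) in PORI rpt2a, and at 0.326% (0.321% to 0.331%) and 0.419% (0.412% to 0.425%) in PORI. Only PORI rpt2a replicate 2 lay above the controls, and PORI rpt2a replicate 1 lay between them. The groups averaged 0.592% ± 0.253 in PORI rpt2a and 0.372% ± 0.0656 in PORI (SD, n = 2 each; exact two-sided permutation p = 0.667, where 2 against 2 libraries cannot give less than 0.33). AT1G12590 stood at 0.869% (0.860% to 0.877%) and 0.283% (0.277% to 0.289%) in PORI rpt2a, and at 0.600% (0.593% to 0.607%) and 0.390% (0.384% to 0.396%) in PORI. The mutant libraries were the highest and the lowest of the 4, with means of 0.576% ± 0.414 in PORI rpt2a and 0.495% ± 0.148 in PORI (SD, n = 2 each; exact permutation p = 1). The intervals hold for counting error alone, as PCR copies were not told apart, and they were far narrower than the gaps between libraries of one group.

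In the fit across all genes neither gene passed the test. AT1G06610 had 3631 and 11163 CPM in PORI rpt2a and 2700 and 4170 CPM in PORI, scaled by trimmed mean of M-values (TMM), and AT1G12590 had 7633 and 4097 CPM in PORI rpt2a and 4968 and 3884 CPM in PORI. In both genes the groups overlapped, whereas they did not in 57.1% of the 8110 genes tested (27.5% with both mutant libraries above both controls and 29.6% below). The log2 fold change was 1.11 ± 0.68 for AT1G06610 (SE, n = 2 per group; edgeR adjusted p = 0.387) and 0.41 ± 0.54 for AT1G12590 (adjusted p = 0.691), so 0 of the 2 genes passed, beside 0.0247% of all genes. With the table total alone as library size the median over all genes shifted by -0.26 on the log2 scale, and AT1G06610 was then at 0.67 and AT1G12590 at 0.22. Without PORI rpt2a replicate 1 AT1G06610 was at 1.75 and passed (edgeR adjusted p = 2.47e-05), where the single mutant library left is taken to vary as much as the controls do. Without PORI rpt2a replicate 2 it was at 0.16 (adjusted p = 0.808), and over all alternatives its adjusted p ranged from 2.47e-05 to 0.880. Without PORI rpt2a replicate 1 AT1G12590 was at -0.057, and without PORI rpt2a replicate 2 at 0.87 (edgeR adjusted p = 0.0717), within 0.0717 to 0.956 over its alternatives.

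Counts were then summed over copies, which takes out their division among copies if each read was counted once, a point that the sources used here do not settle. All tRNA-Ala genes together made up 1.23% and 0.979% of gene counts in PORI rpt2a and 1.04% and 0.921% in PORI, and the groups overlapped on this scale. In the fit with tRNA genes summed by amino acid, which was added after the data were seen, tRNA-Ala was at 0.49 ± 0.54 on the log2 scale (edgeR adjusted p = 0.616), against 1.11 for AT1G06610 alone. Its TMM-scaled level there was 10763 and 14251 CPM in PORI rpt2a and 8610 and 9145 CPM in PORI, so that on this scale the groups did not overlap. All tRNA-Gly genes together made up 1.39% and 0.295% of gene counts in PORI rpt2a and 1.28% and 0.847% in PORI. The summed tRNA-Gly value was -0.20 ± 0.65 (edgeR adjusted p = 0.871), of the other sign than AT1G12590 alone. In that fit 5.35% of 7926 features were called, and groups did not overlap in 57.5%. AT1G06610 with its 12 like copies made up 0.865% and 0.771% of gene counts in PORI rpt2a and 0.682% and 0.646% in PORI. On this sum, whose members were picked by their profiles after the values were seen and which therefore carries no test, both mutant libraries were above both controls, as in 25.1% of the 4324 genes with at least 100 counts, with means of 0.818% ± 0.0670 in PORI rpt2a and 0.664% ± 0.0259 in PORI (SD, n = 2 each). The 13 tRNA-Ala genes of the second kind made up 0.362% and 0.208% in PORI rpt2a and 0.361% and 0.276% in PORI.

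**Figure D3:**
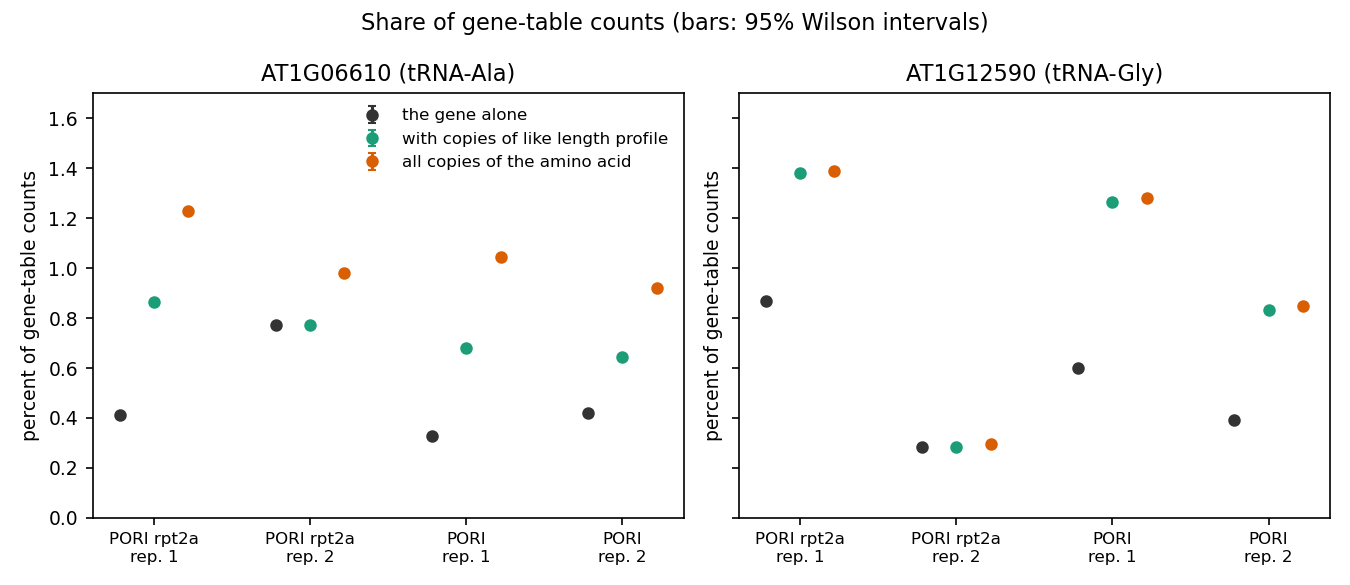
Share of gene-table counts per library for each gene alone, for the gene with its copies of like length profile, and for all copies of the same amino acid, as percent with 95% Wilson intervals that are mostly smaller than the points. The sum of AT1G06610 and its like copies lies at 0.865% and 0.771% in PORI rpt2a and at 0.682% and 0.646% in PORI, while the tRNA-Gly sums are highest in PORI rpt2a replicate 1 and lowest in PORI rpt2a replicate 2.

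The most frequent length of each gene was then tested on its own. At 19 nt AT1G06610 had 12031 and 26717 TMM-scaled CPM in PORI rpt2a and 7430 and 10770 CPM in PORI, so the groups did not overlap, as in 44.7% of the 532 genes tested at that length. Its log2 fold change was 1.09 ± 0.52 (SE, n = 2 per group; edgeR adjusted p = 0.608, ranging from 0.164 to 0.997 over the alternatives). No gene was called at 19 nt (0% of those tested), with 47 at an unadjusted p under 0.05, and DESeq2 called 3. Summed over all tRNA-Ala genes, the 19 nt reads stood at 28537 and 29705 CPM in PORI rpt2a and 17582 and 18972 CPM in PORI, a log2 fold change of 0.67 ± 0.33 (edgeR adjusted p = 0.555). These groups did not overlap either, as in 45.5% of the features of that fit. Without PORI rpt2a replicate 2 the value of AT1G06610 at 19 nt was 0.39, and without PORI rpt2a replicate 1 it was 1.54.

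At 26 nt AT1G12590 had 125575 and 24714 TMM-scaled CPM in PORI rpt2a and 47300 and 36338 CPM in PORI. One mutant library was above both controls and the other below both, where 46.4% of the 317 genes tested at 26 nt had groups that did not overlap (22.1% above, 24.3% below) and 0.631% were called. The log2 fold change was 0.85 ± 0.82 (SE, n = 2 per group; edgeR adjusted p = 0.790). It was 0.080 with the total of the 3 tables as library size, a scaling that shifted the median over all genes at 26 nt by -0.91, and 0.43 with the replicate number as a block. Leaving out either mutant library turned this into a call in opposite directions, at -0.82 without PORI rpt2a replicate 1 (edgeR adjusted p = 0.0332) and 1.58 without PORI rpt2a replicate 2 (adjusted p = 4.96e-05). Over all alternatives the adjusted p ranged from 4.96e-05 to 0.996. Summed over all tRNA-Gly genes the 26 nt value was 0.35 ± 0.83 (edgeR adjusted p = 0.915), in a fit where groups did not overlap in 43.9% of features.

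Levels per length, as CPM of the gene-table total without TMM scaling, show which lengths carried these differences. For AT1G12590 with its 7 like copies, the 26 nt reads stood at 10886 and 799 CPM in PORI rpt2a and 9458 and 5968 CPM in PORI. The 18 nt reads of the same genes were highest in PORI rpt2a replicate 2, with 768 and 1278 CPM in PORI rpt2a and 837 and 659 CPM in PORI. For AT1G06610 with its 12 like copies, the 19 nt reads stood at 2640 and 2863 CPM in PORI rpt2a and 1758 and 1879 CPM in PORI. The 20 nt reads stood at 1983 and 1620 CPM in PORI rpt2a and 1303 and 1251 CPM in PORI. Their 25 nt reads were at 899 and 581 CPM in PORI rpt2a and 1092 and 939 CPM in PORI. The 19 and 20 nt fragments were thus above both controls in both mutant libraries and the 25 nt fragment below both, a description of sums picked after the values were seen. Among genes with at least 100 counts at the given length, both mutant libraries were above both controls in 20.6% at 19 nt and 16.7% at 20 nt, and below both in 53.3% at 25 nt.

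**Figure D4:**
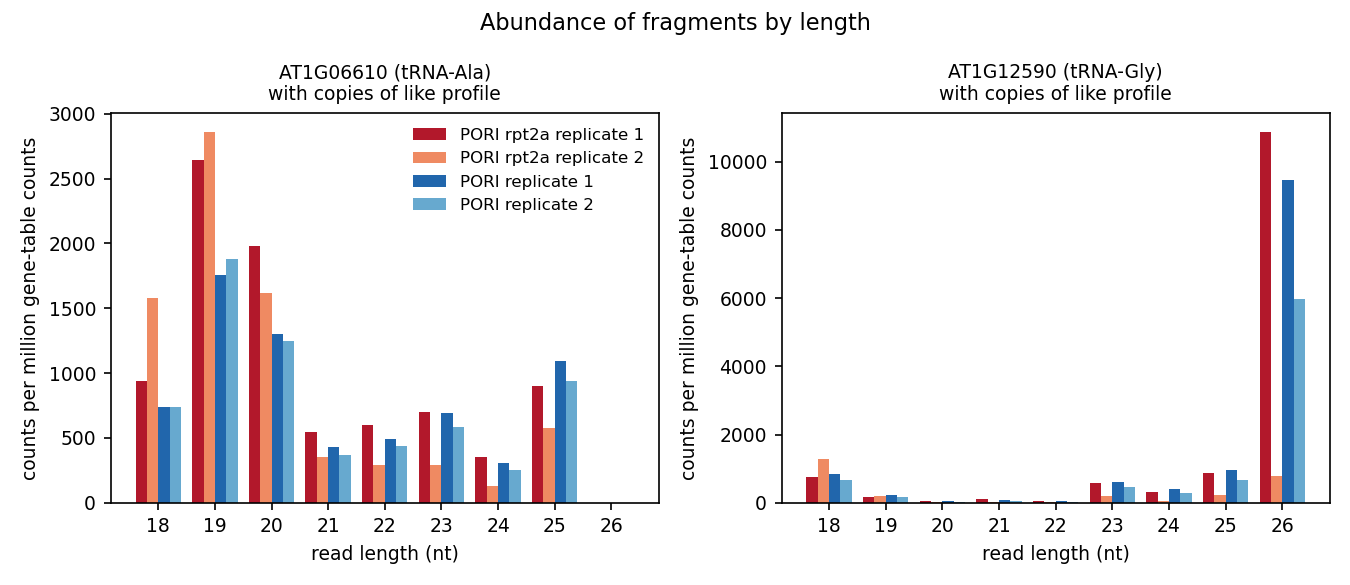
CPM of the gene-table total, without TMM scaling, at each read length for each gene summed with its copies of like length profile, one bar per library. The 19 nt bars of the tRNA-Ala sum are 2640 and 2863 in PORI rpt2a and 1758 and 1879 in PORI, and the 26 nt bar of the tRNA-Gly sum is 799 in PORI rpt2a replicate 2, against 5968 to 10886 in the other libraries.

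The mean fragment length condenses the profiles to 1 value per library. For AT1G06610 it was 20.6 and 19.9 nt in PORI rpt2a and 21.04 and 20.87 nt in PORI, a difference of -0.70 nt between means of 20.3 ± 0.503 nt in PORI rpt2a and 20.96 ± 0.116 nt in PORI (SD, n = 2 each; exact permutation p = 0.33, the smallest possible). Both mutant libraries were below both controls, as they were in 63.1% of the 548 genes with at least 100 counts in each library, and PORI rpt2a replicate 1 alone was at -0.35 nt from the control mean. For AT1G12590 it was 25.2 and 21.4 nt in PORI rpt2a and 24.9999 and 24.84 nt in PORI, a difference of -1.63 nt between means of 23.3 ± 2.65 nt in PORI rpt2a and 24.9 ± 0.113 nt in PORI (SD, n = 2 each; exact permutation p = 1). Here PORI rpt2a replicate 1 was the longest and PORI rpt2a replicate 2 the shortest of the 4 libraries, and without the shorter one the difference was 0.24 nt.

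Shorter reads in both mutant libraries, as seen for AT1G06610 but not for AT1G12590, were not limited to that gene. The shift was larger in PORI rpt2a replicate 2. The mean length over the other nuclear tRNA genes was 22.3 and 20.9 nt in PORI rpt2a and 22.9 and 22.6 nt in PORI, and over the whole gene table it was 21.66 and 21.09 nt in PORI rpt2a and 21.94 and 21.72 nt in PORI. In both sums each mutant library was below both controls. Of 15 tRNA families with at least 1000 counts, grouped by amino acid, 13 had their shortest mean length in PORI rpt2a replicate 2, and in 8, tRNA-Ala among them, both mutant libraries were shorter than both controls. The part of this shift in the values of AT1G06610 and AT1G12590 was not tested. The other families of at least 1000 counts with a 26 nt peak were tRNA-Glu and tRNA-Asn. Reads of 26 nt made up 42.1% and 33.1% of tRNA-Glu counts in PORI rpt2a and 51.0% and 48.0% in PORI, and for tRNA-Asn 42.8% and 32.6% in PORI rpt2a and 42.1% and 42.1% in PORI, against 78.3% and 27.1% in PORI rpt2a and 73.8% and 70.6% in PORI for tRNA-Gly. Whether families differed in this was not tested. Nuclear rRNA genes took 21.6% and 21.5% of gene counts in PORI rpt2a and 21.1% and 22.1% in PORI, and chloroplast genes 17.5% and 14.2% in PORI rpt2a and 19.3% and 18.8% in PORI.

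Nuclear tRNA genes as a class made up 3.37% and 2.13% of gene counts in PORI rpt2a and 3.01% and 2.47% in PORI. AT1G06610 and AT1G12590 supplied 38.0% and 49.4% of these reads in PORI rpt2a and 30.8% and 32.7% in PORI. By amino acid, tRNA-Ala took 37.3% and tRNA-Gly 36.5% of all nuclear tRNA counts over the 4 libraries, and tRNA-Ser, the next, 8.17%. Of 206 nuclear tRNA genes tested, 120 had a log2 fold change above 0 and 86 below, beside 3944 and 4166 of all 8110 genes. The median was 0.18, beside -0.036 over all genes. Among tRNA-Gly genes 7 of 21 tested were above 0 and 14 below, with a median of -0.95. Among tRNA-Ala genes 10 of 17 tested were above 0 and 7 below, with a median of 0.026. These counts take each copy as a separate gene, although copies can share reads, so they give no direction for the class. Summed over copies, tRNA-Gly was at -0.20 and tRNA-Ala at 0.49 on the log2 scale. Calls among the 206 nuclear tRNA genes were 0 higher and 2 lower, AT5G45745 and AT5G59385, which were also the only calls among the 8110 genes.

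Small RNA reads at genes of enzymes that make, bind or modify tRNAs and small RNAs were sparse. Of a list of 15 such genes 3 could be tested, and 0 of these passed, where 0.0247% of all genes did. The list held the RNase T2 enzymes RNS1 to RNS3, Dicer-like and Argonaute proteins, the PRORP enzymes that trim tRNA ends and the tRNA methyltransferase DNMT2. RNS2 had 4 and 1 counts in PORI rpt2a, against 5 and 3 in PORI, RNS1 had 0 and 2 counts in PORI rpt2a and 0 and 0 in PORI, and RNS3 had 1 and 0 counts in PORI rpt2a and 0 and 0 in PORI. DCL1, which cuts miRNA precursors, was at -1.33 ± 0.50 on the log2 scale (edgeR adjusted p = 0.187). AGO1, the main miRNA effector, was at -0.50 ± 0.43 (edgeR adjusted p = 0.530) and AGO2 at -0.70 ± 0.44 (adjusted p = 0.401). The tables do not say from which part of a gene these reads came, and small RNA reads do not measure the level of an mRNA.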

How the data were processed

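Small RNA libraries of 4 seedling samples were grouped by sample title. The authors deposited raw whole-number counts, 1 gene table per library with a column for each read length from 18 to 26 nt per the file headers. Per the submitters' processing notes the build was TAIR10 and the tools included HTSeq, DESeq2, cutadapt 1.9.1, CASAVA 1.8.2 and FastQC 0.11.2. The aligner, strand use and how multi-copy reads were assigned are not given in the sources used here, so counts of single tRNA copies are uncertain. The miRNA and TE tables entered only as a library size.

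Names and classes came from the TAIR10.1 RefSeq table, matched by locus tag. tRNA families are genes with the same amino acid in their annotated name. Chloroplast tRNA genes were not analysed here. The whole gene table was fitted by group in R 4.3.3 with the quasi-likelihood test of edgeR 4.0.16, after TMM scaling and filterByExpr (at least 10 counts, total of at least 15), with p-values adjusted by Benjamini-Hochberg and called under 0.05, over all lengths and at 19 and 26 nt. SE is the absolute log2 fold change over the square root of F. The edgeR step was tested on simulated data with large changes planted in well-counted genes. The simulated spread was fixed and not taken from these libraries, so the test does not show what edgeR can find at their spread. Shares and mean lengths were compared by exact permutation tests in Python 3.11.15 (scipy 1.17.1, numpy 2.4.6, pandas 2.3.3), and figures were drawn with matplotlib 3.10.9. Depth was 2886928 to 4806891 gene counts per library, so counting error was small beside the spread between libraries. The libraries of a group differed by more than sampling noise (chi-square per degree of freedom 85.2 in PORI rpt2a and 14.2 in PORI).

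Alternatives were DESeq2 1.42.0, its size factors, the total of the 3 tables or of the gene table as library size, no filter or at least 50 counts, the replicate number as a block, no nuclear rRNA and organelle genes, other denominators, another length window, the median length and each library left out. Summed copies and the shares of all genes beside the length measures were added after the data were seen. The members and lists were chosen with earlier results of these data known. Named genes are the members, the 3 nearest length profiles (at least 1000 counts), the 3 most abundant like-named copies with at least 100 counts, the 5 most abundant entries and tRNA entries, of which the text names some, and tested factors. RNS1 to RNS3 were named although not tested.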

Additional observations from a re-analysis of the deposited data

How the results depend on the processing

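AT1G06610 kept a positive log2 fold change in 13 of 13 alternatives over all lengths and in 13 of 13 at 19 nt. Its shorter mean length held in 8 of 8. As both mutant libraries were below both controls, AT1G06610 could not change sign there under the block or with a library left out. Its one changed call, at 1.75, came without PORI rpt2a replicate 1, within 0.16 to 1.75 over the 4 libraries left out in turn (0.39 to 1.54 at 19 nt, 0.15 to 1.05 for the log2 ratio of shares and -1.06 to -0.35 nt for the mean length). AT1G12590 changed sign with the copies summed, from 0.41 to -0.20 in the fit and from 0.22 to -0.34 for the share, and its leave-one-out values ran from -0.057 to 0.87 over all lengths, -0.82 to 1.58 at 26 nt, -0.81 to 0.81 for the share and -3.51 to 0.24 nt for the mean length. Genes called over all lengths (2) numbered 0 with the table total as library size, 669 without a filter, 0 at 50 counts, 477 in DESeq2, 424 with tRNA copies summed and 18 to 2718 with a library left out. At 19 nt (0 called) they were 31 without a filter and 3 in DESeq2, and 0 with any library left out. At 26 nt (2 called) they were 10 without a filter, 0 at 50 counts, 5 in DESeq2, 0 without nuclear rRNA and organelle genes, 0 with copies summed and 0 to 52 with a library left out. With the replicate number as a block 596 genes (492 higher, 104 lower) were called over all lengths and 14 at 26 nt. The replicate numbers are not stated to pair libraries, and deviations of same-numbered libraries correlated at 0.158. Under the block AT1G06610 was at 0.92 and AT1G12590 at 0.35. The causes of these changes were not tested. For both genes counting error was small beside the spread between libraries.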
